A study of Mus musculus with 48 samples.

Results

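The 10 genes described here belong to the tumour necrosis factor (TNF) family or to the response that the transcription factor NF-κB controls. They were selected by Ensembl identifier from the 42548 genes of the count table, as a list that sets no contrast or threshold of its own. The list was drawn up with earlier results of these libraries in view, so the counts of changed members below describe the list and do not test it.

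TNF ligands bind receptors of the TNF receptor family, and adaptor and ubiquitin ligase complexes at the receptor pass the signal on to NF-κB. In resting cells inhibitor proteins hold NF-κB dimers in the cytoplasm, and a stimulus leads to the breakdown of the inhibitor and the entry of the dimers into the nucleus. Several target genes of NF-κB code for proteins that stop the signal again, and in lung epithelium the pathway is known for its part in injury and inflammation.

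The ligands were Tnf (ENSMUSG00000024401, chr17:35199367-35202007), the founding cytokine of the family, and Tnfsf9 (ENSMUSG00000035678, chr17:57105287-57107758), which stimulates activated T cells. The receptor was Tnfrsf12a (ENSMUSG00000023905, chr17:23675445-23677449), which binds the TNF-like ligand TWEAK and is known to be induced in injured epithelium. Birc3 (ENSMUSG00000032000, chr9:7847468-7873205) codes for a ubiquitin ligase that works in the receptor complexes. The NF-κB subunits were Relb (ENSMUSG00000002983, chr7:19606217-19629438) and Nfkb2 (ENSMUSG00000025225, chr19:46300994-46312400), whose products pair in the non-canonical branch of the pathway. The inhibitors were Nfkbia (ENSMUSG00000021025, chr12:55489409-55492647), which codes for the cytoplasmic inhibitor IκBα, Tnfaip3 (ENSMUSG00000019850, chr10:19000910-19015410), a ubiquitin-editing enzyme that shuts off the signal, and Tnip3 (ENSMUSG00000044162, chr6:65590398-65634040), whose human protein binds that enzyme. Icam1 (ENSMUSG00000037405, chr9:21015940-21028814), a leukocyte adhesion molecule, stood for the targets. Coordinates are those of RefSeq for GRCm38.p6, and all 10 genes are listed there as protein coding.

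The series measured RNA from 24 mice, each of which gave a library of lung epithelium and a library of whole lung, 48 in all. Mice carried the RiboTag allele, a ribosomal protein with an HA tag, and the labels describe all 48 libraries as RNA recovered with the tagged ribosome by an antibody against HA and sequenced from the 3' end. The driver that switches the tag on in epithelium, and how the whole lung libraries differed in preparation, is not stated by the labels. Bleomycin is a drug that injures the lung and leads to fibrosis in mice. The groups were 4 mice with bleomycin and the treatment 3G9, which is an antibody to αvβ6, the integrin through which latent TGFβ is activated, 5 mice with bleomycin and KIRA8, a small molecule directed at the kinase of the stress sensor IRE1α, 9 mice with bleomycin and a control treatment, and 6 mice with saline and a control treatment. The control treatment was Vehicle in batches S061 and S135 and Axum8, which the labels do not describe, in batch S151. Batch S061 held 3 KIRA8 and 3 bleomycin control mice, S135 held 2 KIRA8, 2 bleomycin control and 3 saline mice, and S151 held 4 3G9, 4 bleomycin control and 3 saline mice. Mice of both sexes were used. In S135 the only female was saline mouse 146, while each group of the other batches held both sexes. Sex was a term only in an alternative fit.

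Library totals ran from 7163613 to 51797377 counts. The S061 libraries stood apart: a set of 146 genes, none of them a member, were high there and near 0 in most other libraries. In S061 epithelium they took 9.25 to 12.7% of the counts of KIRA8 libraries and 6.01 to 8.59% of those of bleomycin control libraries. In S061 whole lung they took 7.21 to 8.94% and 7.43 to 9.81%. Their part in the KIRA8 differences was not tested. A further set of 1339 genes, at least 8-fold lower in the epithelium of saline mice than in their whole lung, served as a measure of RNA from other cells, although it was defined in part on the same saline libraries. That share was 5.02 to 10.3% in S061, 0.480 to 0.900% in S135 and 0.249 to 0.775% in S151, against 7.65 to 16.9% in whole lung libraries. The count table does not pair identifiers with symbols, so cell type markers by name were not applied, and the epithelial fraction was checked only by this share.

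Levels are given as CPM, the count scaled to the library total. Differences are log2 fold changes with their standard error (SE) from edgeR's quasi-likelihood test with batch as a term. TMM scaling sets them relative to the bulk of the genes, and a gene is called at a Benjamini-Hochberg adjusted p under 0.05 over all genes tested. The p-values measure the spread between mice.

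The promoters of 5 members are shown. Tnip3 and Tnfrsf12a were called higher with bleomycin in both compartments, and Tnfaip3, Nfkbia and Nfkb2 are feedback genes of the pathway. In the main fits Nfkbia was called in no comparison and Tnfaip3 only between compartments. The genes shown include all 4 members with a match described below. Windows run from 250 bases before to 50 bases after the RefSeq start site (GRCm38.p6), on the gene's strand and 5' to 3', and capitals mark matches to the κB consensus on either strand. They lie at chr6:65590148-65590447 (+) for Tnip3, chr17:23677400-23677699 (-) for Tnfrsf12a, chr10:19015361-19015660 (-) for Tnfaip3, chr12:55492598-55492897 (-) for Nfkbia and chr19:46304487-46304786 (+) for Nfkb2.
Tnip3: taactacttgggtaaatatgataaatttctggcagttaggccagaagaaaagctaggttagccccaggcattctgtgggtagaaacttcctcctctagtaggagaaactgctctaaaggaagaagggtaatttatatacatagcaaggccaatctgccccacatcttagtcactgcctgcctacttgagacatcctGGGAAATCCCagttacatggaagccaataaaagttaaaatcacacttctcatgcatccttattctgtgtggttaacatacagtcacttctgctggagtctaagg
Tnfrsf12a: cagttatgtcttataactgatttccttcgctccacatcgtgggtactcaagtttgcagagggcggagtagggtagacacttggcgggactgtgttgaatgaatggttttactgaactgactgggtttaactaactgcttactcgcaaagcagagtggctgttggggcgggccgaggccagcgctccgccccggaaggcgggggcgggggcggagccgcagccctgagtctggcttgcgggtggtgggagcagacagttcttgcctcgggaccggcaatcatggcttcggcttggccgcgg
Tnfaip3: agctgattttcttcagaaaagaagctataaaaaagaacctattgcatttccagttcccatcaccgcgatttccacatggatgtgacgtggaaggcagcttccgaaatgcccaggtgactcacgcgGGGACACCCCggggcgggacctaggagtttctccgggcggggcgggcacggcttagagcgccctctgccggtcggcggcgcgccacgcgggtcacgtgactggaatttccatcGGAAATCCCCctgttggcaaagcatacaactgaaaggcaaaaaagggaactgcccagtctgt
Nfkbia: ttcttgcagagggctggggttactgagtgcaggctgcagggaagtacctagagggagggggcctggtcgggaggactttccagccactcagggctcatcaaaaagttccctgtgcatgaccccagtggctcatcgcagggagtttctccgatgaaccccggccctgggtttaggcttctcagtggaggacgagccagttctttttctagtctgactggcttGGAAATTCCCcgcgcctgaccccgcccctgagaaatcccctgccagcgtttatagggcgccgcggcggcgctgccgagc
Nfkb2: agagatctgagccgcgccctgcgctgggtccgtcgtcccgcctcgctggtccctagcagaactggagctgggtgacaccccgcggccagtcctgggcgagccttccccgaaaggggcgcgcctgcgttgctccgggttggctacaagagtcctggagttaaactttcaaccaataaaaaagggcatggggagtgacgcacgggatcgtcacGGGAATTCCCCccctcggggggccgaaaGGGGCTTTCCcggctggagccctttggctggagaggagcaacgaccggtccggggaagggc

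The Tnip3 window held the match GGGAAATCCC, which began 54 bases upstream of the start site. The Nfkbia window held GGAAATTCCC at 29 bases upstream. The Tnfaip3 window held GGGACACCCC at 125 and GGAAATCCCC at 12 bases upstream. These matches lie close to the start sites, within the 250 bases searched before them. The Nfkb2 window held GGGAATTCCC at 39 bases and GGAATTCCCC at 38 bases upstream, which overlap, and GGGGCTTTCC at 11 bases upstream. No full match to the consensus was found in the Tnfrsf12a window. Of the 8 members with a RefSeq window, 4 (50%) held a match in at least 1 window, against 2581 of all 27025 genes (9.55%). The windows of Tnf, Birc3 and Icam1 held none, and Relb and Tnfsf9 are named only. A match is a description of the letters and says nothing about binding.

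The receptor Tnfrsf12a and the inhibitor Tnip3 rose with bleomycin in both compartments, and Nfkb2 rose in whole lung. In epithelium, 2 of 10 members were called, both higher, against 8.72% of the 17291 genes tested (4.55% higher and 4.17% lower). The median log2 fold change of the 10 members was 0.35, against a median near 0 over all genes. In whole lung, 3 of 10 were called, all higher, against 10.1% of the 19345 genes tested (6.01% higher). There the members' median log2 fold change was 0.49, again against a median near 0. With library totals in place of TMM scaling the median gene moved by 0.37 in epithelium, 96.8% of called genes were higher (52.2% with TMM) and 4 members were called, Tnfsf9 and Nfkb2 among them. In whole lung 84.5% were then higher (59.2% with TMM), and Relb was called as a further member (0.52, adjusted p = 0.0476). In bulk libraries of this kind, a change in the number of cells of a type and a change in RNA per cell cannot be told apart.

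**Figure D1:**
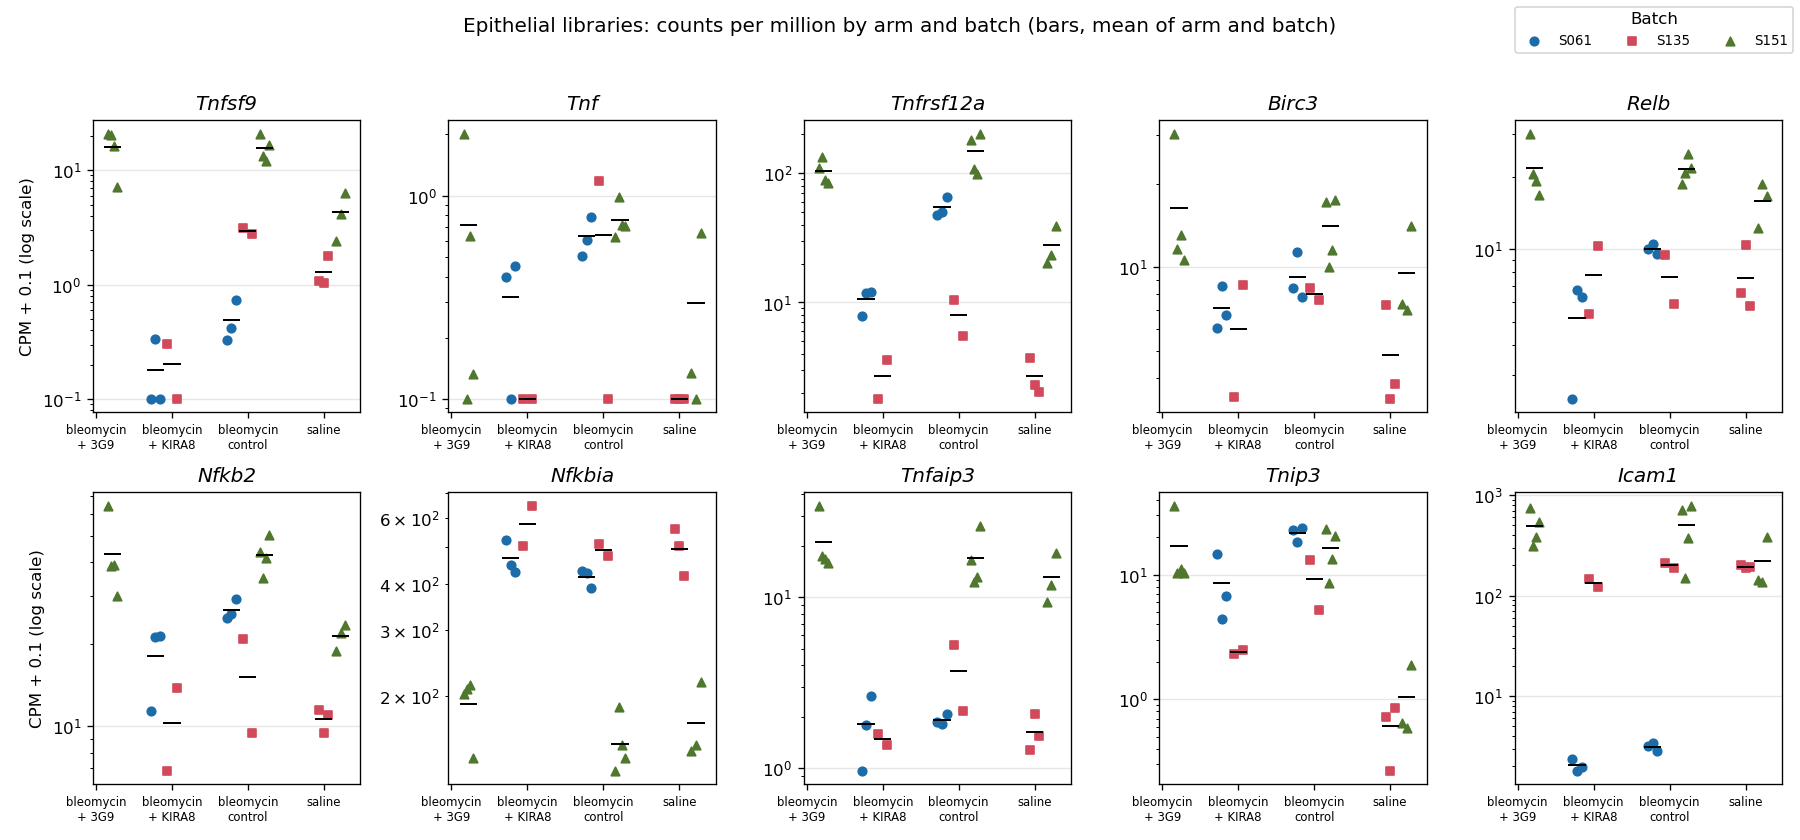
Level of each member in the 24 epithelial libraries, as CPM plus 0.1 on a log axis, by group (horizontal axis) and batch (colour and shape), with bars at the mean of each group and batch. Tnip3 lies under 2 CPM in all 6 saline libraries and above 5 CPM in all 9 bleomycin control libraries, while Icam1 divides by batch.

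Tnip3 showed the widest separation of any member in epithelium. It stood at 13.1 and 5.14 CPM in the S135 bleomycin control libraries, against 0.62, 0.17 and 0.75 CPM in the saline libraries of that batch. In S151 it stood at 23.3, 8.52, 13.3 and 20.3 CPM in bleomycin control libraries, against 0.55, 0.48 and 1.79 CPM in saline libraries. The S061 bleomycin control libraries, which have no saline mice beside them, held 22.6, 18.1 and 23.4 CPM. Every bleomycin control library lay above every saline library. This was a log2 fold change of 3.68 ± 0.414 (SE), or 12.8-fold (adjusted p = 2.75e-06), with 3.94 within S135 (adjusted p = 0.00878) and 3.68 within S151 (adjusted p = 0.00389).

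In whole lung Tnip3 rose less. It held 11.9 and 3.52 CPM in S135 bleomycin control libraries, against 2.0, 1.13 and 3.24 CPM in saline libraries. In S151 bleomycin control libraries ranged from 8.24 to 14.6 CPM, against 2.33 to 3.47 CPM in saline libraries. The groups did not overlap in either batch, and the log2 fold change was 1.63 ± 0.339 (adjusted p = 0.00399). The response was larger in epithelium than in whole lung by 1.99 ± 0.347 on the log2 scale (adjusted p = 0.0228, interaction term with the mouse as a block). Tnip3 was the only member called for that difference, with 0.162% of 17956 genes called, 69.0% of them higher (93.8% with library totals). Without the block the difference was 1.91 with an adjusted p of 0.134, without batch S061 it was 2.01 with an adjusted p of 0.0656, and it also missed the threshold when bleomycin control mouse 148 or 149 or saline mouse 207 or 221 was left out.

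Tnfrsf12a rose in both compartments, and the difference between them was smaller than its error. In epithelium it stood at 10.4 and 5.38 CPM in S135 bleomycin control libraries, against 3.61, 2.20 and 1.94 CPM in saline libraries. In S151 it stood at 180.1, 108, 99.0 and 203 CPM in bleomycin control libraries, against 20.1, 23.3 and 39.2 CPM in saline libraries. The groups did not overlap within either batch, but the saline libraries of S151 lay above all S135 libraries, so the level of the gene depended on the batch. The change on the log2 scale was 1.80 ± 0.208 in epithelium (adjusted p = 2.93e-06) and 1.84 ± 0.283 in whole lung (adjusted p = 0.000364). The difference between the compartments was -0.12 ± 0.330, with a 95% interval from -0.76 to 0.53. Within S135 alone the epithelial value was 1.41 and missed the threshold (adjusted p = 0.218), as did the whole lung value of 2.06 (adjusted p = 0.188), and within S151 both were called (1.98 and 1.77).

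Tnfsf9 did not pass the test in epithelium by a narrow margin. It stood at 3.00 and 2.66 CPM in S135 bleomycin control libraries, against 0.97, 0.94 and 1.69 CPM in saline libraries. In S151 it ranged from 12.0 to 20.8 CPM in bleomycin control libraries, against 2.29, 4.03 and 6.25 CPM in saline libraries. The groups did not overlap in either batch, which made Tnfsf9, Tnfrsf12a and Tnip3 the 3 members that lay wholly above saline in epithelium, against 8.35% of all genes. In whole lung Tnfrsf12a and Tnip3 did so, against 5.96% of all genes. Overlap of groups is judged throughout on CPM, without TMM factors. The log2 fold change of Tnfsf9 was 1.19 ± 0.382 in epithelium (adjusted p = 0.0502) and 0.95 ± 0.406 in whole lung (adjusted p = 0.139). Among other settings, its epithelial change was called within S151 (1.48, adjusted p = 0.0329), by DESeq2 (1.2, adjusted p = 0.00619) and with library totals in place of TMM scaling (1.55, adjusted p = 0.00861).

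The share of RNA from the depleted genes was 0.882 to 0.900% in the epithelial bleomycin control libraries of S135, against 0.480 to 0.700% in saline libraries, and 0.352 to 0.775% against 0.249 to 0.363% in S151. In whole lung libraries of these batches it was 7.81 to 16.9% with bleomycin control and 7.65 to 16.1% with saline. Its part in the epithelial changes was not tested. Tnf had no count in any of the 3 epithelial saline libraries of S135, where 3 counts would have been 0.165 to 0.208 CPM. It had 14 counts and no count in the bleomycin control libraries of that batch. In S151 epithelium it held 0.53 to 0.89 CPM in bleomycin control libraries, against 0.03, 0 and 0.55 CPM in saline libraries, and the difference was not called (adjusted p = 0.246).

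Among the subunits, Nfkb2 in whole lung held 67.3, 68.3, 68.8 and 62.0 CPM in S151 bleomycin control libraries, against 43.1, 37.4 and 41.3 CPM in saline libraries. In S135 the 29.2 and 17.6 CPM of bleomycin control libraries overlapped with the 18.5, 13.8 and 12.3 CPM of saline libraries. In the fit over both batches Nfkb2 rose by 0.56 ± 0.131 (adjusted p = 0.00841), and within S135 alone it was 0.60 (adjusted p = 0.253). Its partner Relb gave 0.41 ± 0.154 in whole lung (adjusted p = 0.0919) and 0.02 ± 0.223 in epithelium (adjusted p = 0.983).

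The remaining members did not pass the test with bleomycin. Nfkbia was the only member with a negative value in both compartments, at -0.44 ± 0.144 in epithelium (adjusted p = 0.0534) and -0.12 ± 0.111 in whole lung (adjusted p = 0.546). Tnfaip3 gave 0.20 ± 0.272 and Birc3 0.28 ± 0.241 in epithelium. In whole lung Tnfaip3 gave 0.40 ± 0.233, Birc3 0.17 ± 0.139 and Icam1 0.35 ± 0.153. Icam1 in epithelium gave 0.31 ± 0.280. None of these values passed the test, and those of Tnfaip3, Birc3 and Icam1 had adjusted p-values from 0.150 to 0.721. For Nfkbia the epithelial value was called by DESeq2 (-0.42, adjusted p = 0.0471) and without bleomycin control mouse 206 (-0.53, adjusted p = 0.0144) or saline mouse 153 (-0.50, adjusted p = 0.0383).

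**Figure D2:**
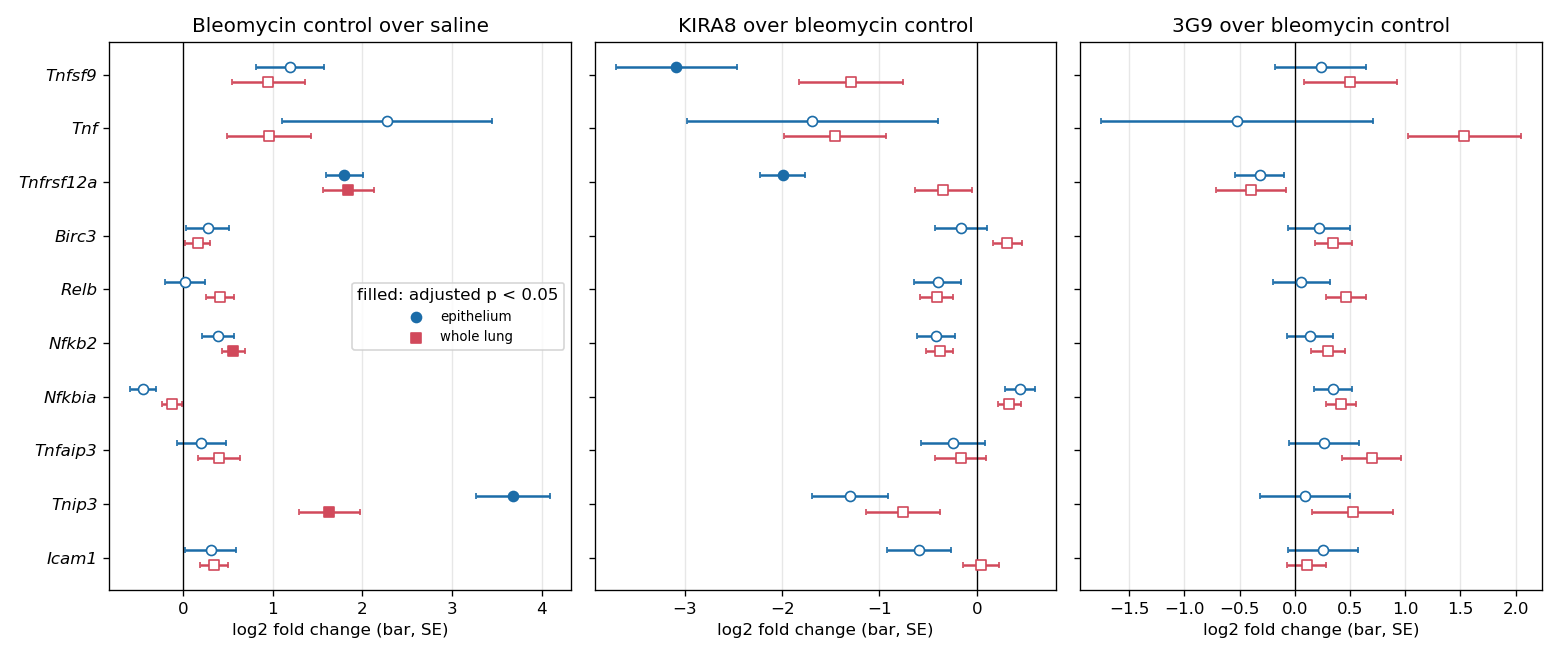
Log2 fold change of each member in bleomycin control over saline, KIRA8 over bleomycin control and 3G9 over bleomycin control (panels left to right), with bars for 1 SE, circles for epithelium and squares for whole lung. Filled symbols mark an adjusted p under 0.05: Tnfrsf12a and Tnip3 for bleomycin, with Nfkb2 in whole lung, then Tnfrsf12a and Tnfsf9 in epithelium for KIRA8, and no member for 3G9.

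With KIRA8, Tnfrsf12a and Tnfsf9 fell in epithelium, and no member was called in whole lung. In epithelium 2 of 10 members were called, both lower, against 0.26% of all genes (0.174% lower). The members' median log2 fold change was -0.50, against 0.02 over all genes. The share of members called was above the background, which is a description of a list chosen with these libraries in view. With library totals the median gene moved by -0.21, 1.86% of called genes were higher (33.3% with TMM), and 2 members were called, both lower. In whole lung edgeR called 0 of 10 members, against 0.527% of all genes, and DESeq2 also called 0. At an unadjusted p under 0.05, 6 members passed in whole lung, 2 of them higher and 4 lower, against 15.4% of all genes, and the median log2 fold change was -0.36. The KIRA8 and bleomycin-saline comparisons share their bleomycin control mice, so their opposite signs in a gene are not independent.

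Tnfrsf12a had 7.73, 11.8 and 12.0 CPM in the epithelial KIRA8 libraries of S061, against 47.5, 50.5 and 65.3 CPM in bleomycin control libraries. In S135 it had 1.69 and 3.49 CPM in KIRA8 libraries, against 10.4 and 5.38 CPM in bleomycin control libraries. KIRA8 libraries lay below every bleomycin control library of their batch, and in S135 they lay among or below the saline libraries of 1.94 to 3.61 CPM. The log2 fold change was -2.0 ± 0.229, about 3.99-fold lower (adjusted p = 5.16e-05). It was -2.22 within S061 (adjusted p = 0.00199) and -1.51 within S135 (adjusted p = 0.437), and without S061 it was -1.78 (adjusted p = 0.217).

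In whole lung the groups overlapped for Tnfrsf12a. It had 25.8, 8.35 and 10.2 CPM in S061 KIRA8 libraries, against 15.6, 22.4 and 13 CPM in bleomycin control libraries. The fitted change was -0.34 ± 0.294 (adjusted p = 0.606). The difference of the KIRA8 response between the compartments was -1.46 ± 0.309 (adjusted p = 0.131). In that comparison edgeR called 0 members and DESeq2 called 1, Tnfrsf12a (-1.45, adjusted p = 0.0059), against 0.00548% of all genes by edgeR. At an unadjusted p under 0.05, 3 members passed, against 12.7% of all genes.

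Tnfsf9 rested on few counts in the batches that held KIRA8 mice. In S061 epithelium the KIRA8 libraries had 0, 7 and 0 counts, against 5, 7 and 14 counts in bleomycin control libraries. In S135 the KIRA8 libraries had 3 and 0 counts, against 39 and 44 counts in bleomycin control libraries. As levels these were at most 0.24 CPM in all 5 KIRA8 libraries, against 0.23 to 0.64 CPM in S061 and 3.00 and 2.66 CPM in S135 bleomycin control libraries, so the groups overlapped narrowly in S061. The log2 fold change was -3.09 ± 0.621 (adjusted p = 0.0298). The call was lost in a fit on the compared groups alone (-2.96, adjusted p = 0.135) and when bleomycin control mouse 45 or KIRA8 mouse 20, 41, 154 or 155 was left out, where values ran from -2.98 to -2.70. It was also lost within S135 alone (-4.31, adjusted p = 0.347). Without KIRA8 mouse 32, which held the 7 counts of S061, the value was -4.72 (adjusted p = 0.000714).

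By CPM, Tnip3 and Icam1 were, with Tnfrsf12a, the members whose epithelial KIRA8 libraries all lay below the bleomycin control libraries of their batch. These were 3 of 10 members, against 6.38% of all genes. CPM leaves out the TMM factors, which in S061 were 0.831 to 0.973 in KIRA8 and 1.05 to 1.11 in bleomycin control libraries. The narrow separation of Icam1 in S061 may therefore not hold under TMM scaling. Tnip3 had 14.5, 4.33 and 6.63 CPM in S061 KIRA8 libraries, against 22.6, 18.1 and 23.4 CPM in bleomycin control libraries. In S135 it had 2.22 and 2.37 CPM in KIRA8 libraries, against 13.1 and 5.14 CPM in bleomycin control libraries. The log2 fold change of -1.30 ± 0.395 was not called by edgeR (adjusted p = 0.178) and was just called by DESeq2 (-1.31, adjusted p = 0.0498). Icam1 had 2.28, 1.69 and 1.85 CPM in S061 KIRA8 libraries, against 3.07, 3.30 and 2.74 CPM in bleomycin control libraries. It had 146 and 123 CPM in S135 KIRA8 libraries, against 211 and 189 CPM in bleomycin control libraries, with a log2 fold change of -0.59 ± 0.327 over both batches (adjusted p = 0.507).

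The share of the depleted genes in S061 epithelium was 7.42 to 10.3% in KIRA8 libraries, against 5.02 to 7.34% in bleomycin control libraries. In S135 it was 0.586 and 0.886%, against 0.882 and 0.900%. It was higher with KIRA8 in S061 and not in S135. Its part in the differences of Tnfrsf12a, Tnfsf9 and Tnip3 was not tested.

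Other members of the KIRA8 comparison did not pass the test. Nfkbia had positive values in both compartments, at 0.45 ± 0.156 in epithelium (adjusted p = 0.239) and 0.33 ± 0.118 in whole lung (adjusted p = 0.174). Relb gave -0.40 ± 0.244 and -0.41 ± 0.171, and Nfkb2 -0.41 ± 0.196 and -0.38 ± 0.142, in epithelium and whole lung. In the same order, Tnfaip3 gave -0.24 ± 0.324 and -0.16 ± 0.261, and Birc3 gave -0.16 ± 0.265 and 0.31 ± 0.151. Tnf in whole lung had 1.34, 0.74 and 0.85 CPM in S061 KIRA8 libraries, against 3.43, 4.45 and 1.93 CPM in bleomycin control libraries. In S135 its 1.16 and 0.69 CPM with KIRA8 overlapped with the 2.47 and 0.98 CPM of bleomycin control libraries, and the log2 fold change was -1.46 ± 0.524 (adjusted p = 0.180).

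**Figure D3:**
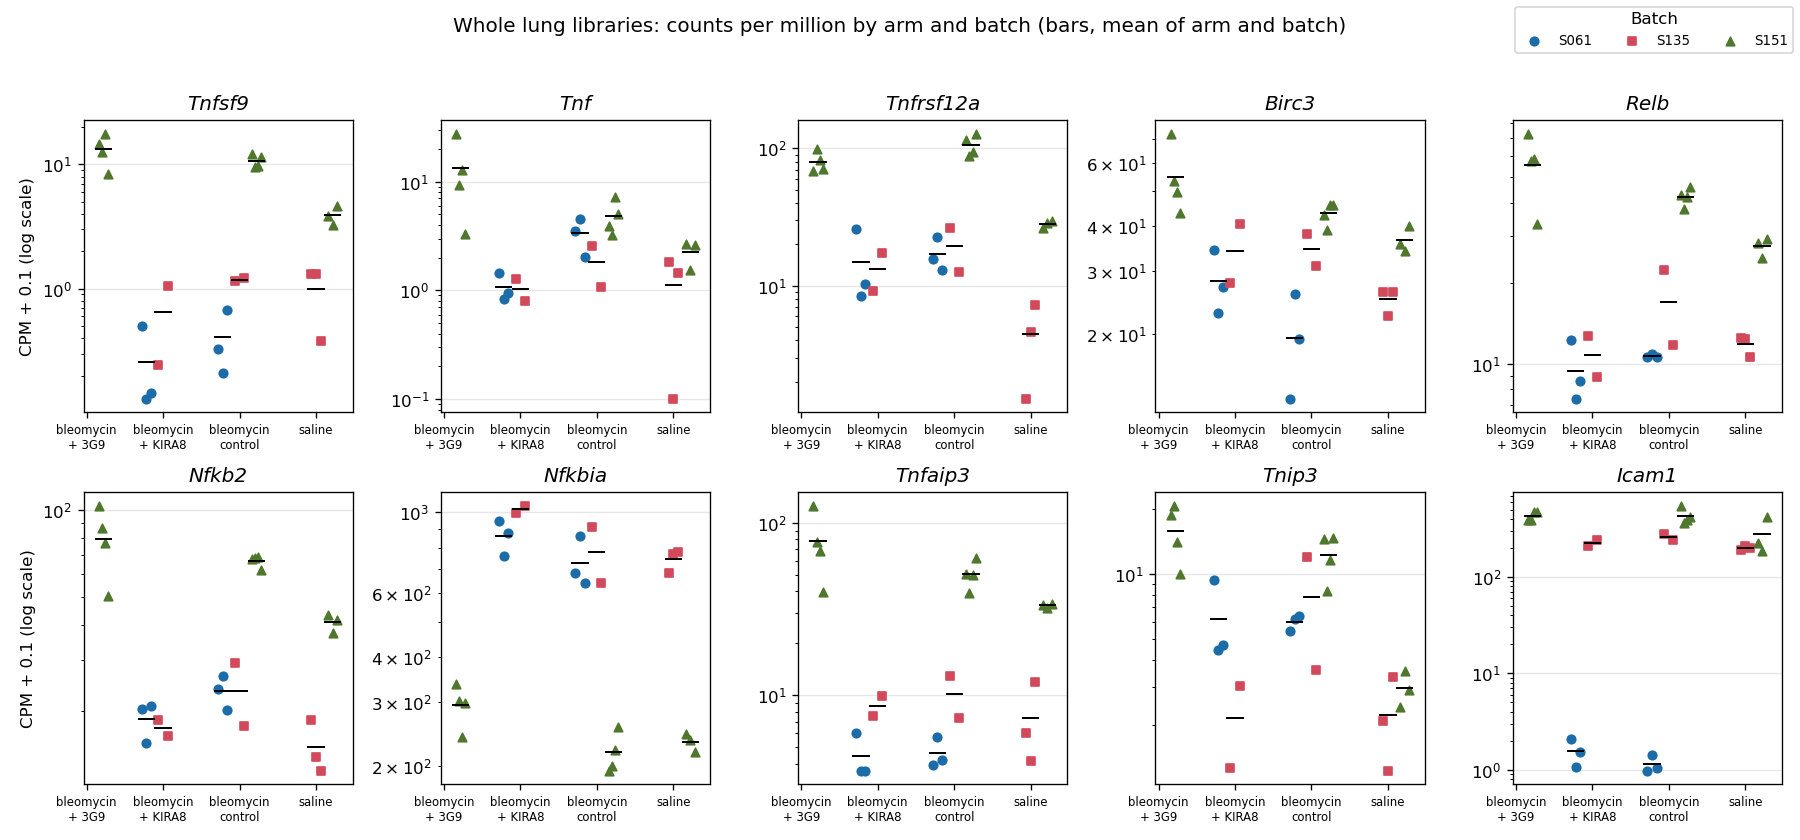
Level of each member in the 24 whole lung libraries, as CPM plus 0.1 on a log axis, by group and batch, with bars at the mean of each group and batch. Tnf, Tnfaip3, Relb, Nfkb2 and Birc3 reach their highest value in the library of 3G9 mouse 218, and Nfkbia is lower in all S151 libraries than in those of the other batches.

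With 3G9, tested in S151 only, no member was called in either compartment. edgeR and DESeq2 each called 0 of 10 in epithelium, where no member had an unadjusted p under 0.05 and edgeR called 0% of all genes. In whole lung both called 0 of 10, against 0.196% of all genes by edgeR, and 5 members had an unadjusted p under 0.05, all higher, against 6.94% of all genes. The members' median log2 fold change was 0.18 in epithelium and 0.44 in whole lung, against medians near 0 over all genes. Without 3G9 mouse 218 they were -0.05 in epithelium, with 6 of 10 members negative, and 0.31 in whole lung, with 9 of 10 positive. The largest value in whole lung was that of Tnf, at 1.54 ± 0.512 with an interval from 0.53 to 2.54 (adjusted p = 0.326).

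Tnf had 27.5, 9.29, 12.7 and 3.20 CPM in whole lung libraries of 3G9 mice, against 3.78, 3.14, 7.06 and 4.92 CPM in bleomycin control libraries. The lowest 3G9 library lay among the controls and the highest, from mouse 218, lay well above the other 3. Without mouse 218 the log2 fold change was 0.86. The same mouse had the highest level of 6 members in whole lung and of 8 in epithelium among the 4 3G9 mice, and the table column of its whole lung library carries a suffix that the labels do not explain. Without it the whole lung value of Tnfaip3 was 0.35, against 0.70 ± 0.267 with it, and that of Relb was 0.29, against 0.46 ± 0.179.

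Tnfrsf12a and Tnip3 showed no difference with 3G9 beyond the spread in epithelium. Tnfrsf12a had 109.6, 134, 89.0 and 83.5 CPM in 3G9 libraries, against 180.1, 108, 99.0 and 203 CPM in bleomycin control libraries, with a log2 fold change of -0.32 ± 0.222 and an interval from -0.75 to 0.12. Tnip3 had 35.7, 10.3, 11.0 and 10.2 CPM in 3G9 libraries, against 23.3, 8.52, 13.3 and 20.3 CPM in bleomycin control libraries, with a log2 fold change of 0.09 ± 0.409 and an interval from -0.71 to 0.89. Without mouse 218 the value of Tnip3 was -0.47. The groups overlapped for all 10 members in both compartments, where 0.37% of all genes lay wholly above and 1.73% wholly below the controls in epithelium, and 1.07% and 2.4% in whole lung. Nfkbia gave 0.35 ± 0.174 in epithelium and 0.42 ± 0.133 in whole lung (adjusted p = 0.287). In the same order, Birc3 gave 0.22 ± 0.284 and 0.35 ± 0.165, and Nfkb2 gave 0.14 ± 0.205 and 0.30 ± 0.153. Icam1 gave 0.25 ± 0.318 and 0.11 ± 0.179, and Tnfsf9 gave 0.23 ± 0.412 and 0.50 ± 0.419.

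Between the compartments of the same mice, Tnf, Tnfaip3 and Birc3 were called lower in epithelium in bleomycin control and in saline mice, under both scalings given below. In bleomycin control mice 7 of 10 members were called, 4 higher and 3 lower in epithelium, against 60.8% of 15624 genes (30.5% higher and 30.3% lower). In saline mice 4 of 10 were called, 1 higher and 3 lower, against 57.5% of 14885 genes (27.3% higher and 30.3% lower). Most genes differ between these compartments, so neither count stands out from the background. The TMM factors had a median of 0.831 in epithelial and 1.14 in whole lung libraries of bleomycin control mice, and of 0.752 and 1.25 in those of saline mice. With library totals in their place the median gene moved by -0.49 in bleomycin control and -0.84 in saline mice on the log2 scale, and 20.8% and 12.2% of called genes were higher in epithelium, against 50.2% and 47.4% with TMM. A sign between the compartments can therefore turn with the scaling, and both are given where it does.

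Birc3 had a lower CPM in epithelium than in whole lung in 24 of 24 mice, with a log2 fold change of -1.07 ± 0.139 in bleomycin control (adjusted p = 1.6e-05) and -1.47 ± 0.238 in saline mice (adjusted p = 0.000253). Tnfaip3 was also lower in 24 of 24 mice, with -1.0 ± 0.134 (adjusted p = 2.18e-05) and -0.92 ± 0.309 (adjusted p = 0.0238). In saline mice its call was lost without mouse 146 (-0.76, adjusted p = 0.0696) or mouse 153 (-0.63, adjusted p = 0.0528), and within S151 alone (-0.46, adjusted p = 0.0596). Tnf was lower in 23 of 24 mice and at 0 counts in both libraries of the other. Its fitted log2 fold change was -2.15 ± 0.402 in bleomycin control (adjusted p = 0.000389) and -4.38 ± 1.18 in saline mice (adjusted p = 0.00876). The saline value rests on 18 counts over 6 epithelial libraries, against 265 in whole lung. These counts of mice use CPM without TMM factors, and the share over all genes was not computed. By the same measure Nfkbia was lower in 24 of 24 mice and Relb in 23 of 24, although neither was called with TMM scaling.

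**Figure D4:**
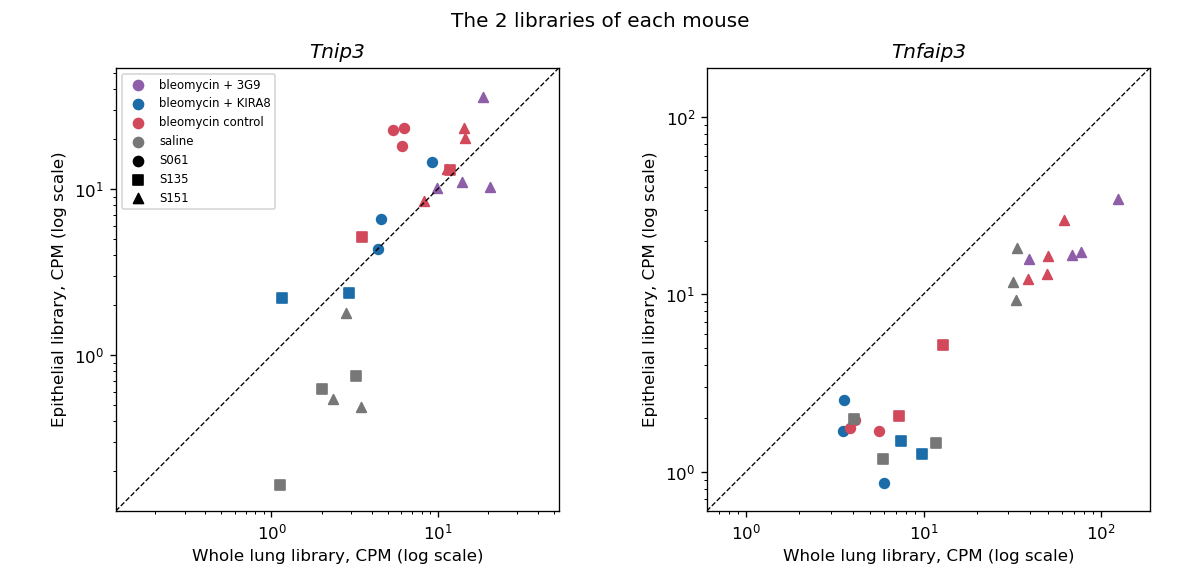
CPM of Tnip3 (left) and Tnfaip3 (right) in the epithelial library (vertical log axis) against the whole lung library (horizontal log axis) of each of the 24 mice, coloured by group and shaped by batch, with the line of equality dashed. Tnip3 lies above the line in 9 of 9 bleomycin control mice and below it in 6 of 6 saline mice, while Tnfaip3 lies below it in all 24.

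Tnip3 changed sides between the groups. Its CPM was higher in epithelium in 9 of 9 bleomycin control mice and lower in 6 of 6 saline mice. The log2 fold change of epithelium over whole lung was 1.34 ± 0.174 in bleomycin control mice (adjusted p = 1.66e-05) and -1.21 ± 0.569 in saline mice (adjusted p = 0.0874). With library totals these were 0.84 and -1.98, both called.

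Tnfsf9 was higher in epithelium in 8 of 9 bleomycin control mice, with a log2 fold change of 1.27 ± 0.218 (adjusted p = 0.000186). Tnfrsf12a was higher in 7 of 9, with 1.01 ± 0.309 (adjusted p = 0.0132), and the other 2 were the S135 mice. Within S135 its value turned to -0.86 (adjusted p = 0.0427), against 1.87 in S061 and 1.08 in S151, and it was not called with library totals (0.50, adjusted p = 0.219) or with no filter on low counts (0.97, adjusted p = 0.0627). Icam1 was called higher in epithelium with TMM scaling, at 0.84 ± 0.228 in bleomycin control (adjusted p = 0.0055) and 0.53 ± 0.109 in saline mice (adjusted p = 0.00148), but with library totals it was 0.34 and -0.24 with neither called. Its TMM value in bleomycin control mice also depended on the batch, at 1.71 in S061, 0.05 in S135 and 0.64 in S151. The sign of Tnfrsf12a in saline mice turned as well, at 0.50 with TMM and -0.31 with library totals, neither called. Relb, Nfkbia and Nfkb2 were not called with TMM scaling in either group. With library totals they gave -0.76, -0.55 and -0.72 in saline mice, all called, which reversed their TMM signs, and Relb and Nfkbia gave -0.72 and -0.66 in bleomycin control mice, both called. Nfkb2 in bleomycin control mice gave 0.10 ± 0.113 with TMM and -0.39 with library totals (adjusted p = 0.0504), and its CPM was lower in epithelium in 7 of 9 mice.

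**Figure D5:**
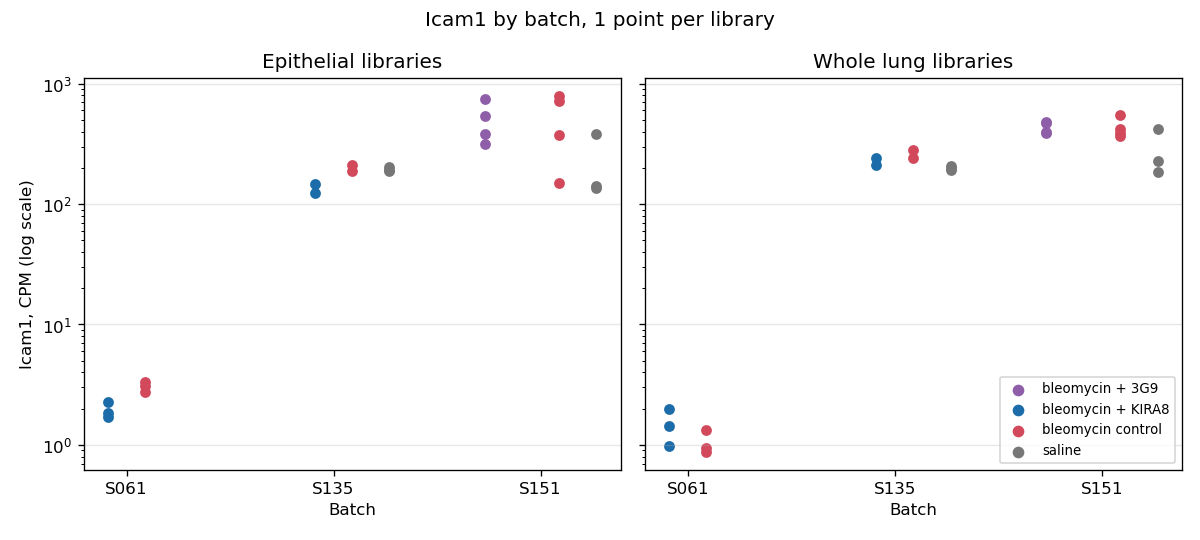
CPM of Icam1 on a log axis in each epithelial library (left) and whole lung library (right), by batch on the horizontal axis and coloured by group. All 12 S061 libraries lie between 0.869 and 3.30 CPM, and the other 36 between 123 and 786 CPM.

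Several members had levels that differed widely between batches. Icam1 ranged from 0.869 to 3.30 CPM in the 12 libraries of S061, against 123 to 786 CPM in the other 36, a gap of 37.3-fold between the nearest libraries. It was the only gene of the table at or under 5 CPM in every S061 library and at or over 100 CPM in every other, by limits chosen after its values were seen. By a looser limit, 35 genes were at or over 10 CPM in all other libraries and at least 10-fold lower in every S061 library. The reverse held for 106 genes, so a gap between S061 and the other batches was not particular to Icam1. All groups within S061 shared the low level, so comparisons of Icam1 within that batch rest on 19 to 72 counts per library.

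Nfkbia was lower in S151 than in the other batches in both compartments. In epithelium it ranged from 126 to 218 CPM in S151, against 389 to 524 CPM in S061 and 420 to 647 CPM in S135. In whole lung it ranged from 194 to 337 CPM in S151, against 639 to 948 CPM in S061 and 641 to 1043 CPM in S135. Tnfaip3 ran the other way, at 9.22 to 34.3 CPM in S151 epithelium, against 0.859 to 2.55 CPM in S061 and 1.18 to 5.15 CPM in S135. Tnfsf9 was also higher in S151 epithelium, at 2.29 to 20.8 CPM, against 0 to 0.64 CPM in S061 and 0 to 3.00 CPM in S135. Since 3G9 mice were only in S151 and KIRA8 mice only in the others, levels of these genes in 3G9 and KIRA8 mice were not set against each other.

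Across libraries of a compartment most pairs of members had positive correlations, 42 of 45 in epithelium and 45 of 45 in whole lung. After batch means were removed from log2(CPM + 1) over the 24 epithelial libraries, the 36 pairs without Nfkbia had correlations from 0.285 to 0.831 with a median of 0.635. In whole lung they ranged from 0.314 to 0.898 with a median of 0.631. The 9 pairs with Nfkbia ranged from -0.142 to 0.255 with a median of 0.01 in epithelium, and from 0.023 to 0.66 with a median of 0.286 in whole lung. These values hold group differences and library scaling as well as any common variation, and are a description. Pairs of all genes were not counted, so the number of positive pairs has no background beside it.

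Relb and Nfkb2 were the most alike pair in whole lung, at 0.898, and stood at 0.771 in epithelium. Among all 12402 genes ranked for likeness to Relb in whole lung, Nfkb2 stood at place 16, and at place 11 of 10721 in epithelium. In epithelium the most alike pairs were Tnfrsf12a with Tnip3, at 0.831, and Tnfrsf12a with Nfkb2, at 0.827. In whole lung Tnf and Tnfaip3 had 0.827. The gene most like Tnfrsf12a in epithelium was ENSMUSG00000062580, at 0.956, and the gene most like Tnfaip3 in whole lung was ENSMUSG00000034266, at 0.936, neither of which the tables used here name.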

How the data were processed

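The deposited table gives raw read counts by gene (Ensembl identifiers) and library, which the authors had not normalized. The submitters' processing notes name STAR 2.5.2b and GRCm38, and no counting program is named in the sources used here. Each of the 48 columns was matched to a sample by mouse number and a letter taken to mean epithelium (E) or whole lung (I).

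Members, lists and tests were chosen with earlier results of these data known. The reference table of genes (GRCm38.p6) matched 0 of 42548 identifiers, so further pathway lists and cell type markers, which are by symbol, were not applied, and member symbols come from the definition of the list. All 10 members are named in each comparison of groups and of compartments, though not always with values for both compartments. For the differences of response only some members are named.

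Counts were tested in R 4.3.3 with edgeR 4.0.16 (TMM, filterByExpr on arm, robust glmQLFit and glmQLFTest, Benjamini-Hochberg adjustment over all genes tested), over the 24 libraries of a compartment with terms for arm and batch. All 10 members passed the filter on low counts in every main fit. In some alternative fits Tnf or Tnfsf9 did not pass it and had no value. Between compartments of saline mice Tnf had a value in 3 of the 6 fits with 1 mouse left out. Compartments were compared with the mouse as a block, since the labels give both libraries of a mouse its number, and differences of response by an interaction term. An SE is the log2 fold change divided by the square root of F. Alternatives were DESeq2 1.42.0, RLE factors, library totals without factors (added after the signs of CPM and of the scaled fit were seen to differ between compartments), no filter, sex as a term, only the groups compared, single batches, no S061 and each mouse left out. Scripts were tested on simulated data. Library totals of 7163613 to 51797377 set the precision: 3 counts, the most that a count of 0 allows, were 0.096 to 0.419 CPM in the libraries where a member was at 0, for counting error only.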

Additional observations from a re-analysis of the deposited data

Results flagged for a closer look

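In the groups of 4 to 9 mice, single libraries stood far from the rest of their group for 9 of the 80 combinations of member, group and compartment looked at. The rule flags about 1 in 20 for independent, normally spread values. Members here share libraries and most groups pool batches, so 9 of 80 cannot be set against that rate. The epithelial library of 3G9 mouse 218 was the highest of 4 for Birc3 (30.3 CPM), Tnfaip3 (34.3 CPM) and Tnip3 (35.7 CPM). The epithelial library of 3G9 mouse 228 was the lowest for Nfkbia (136 CPM). Among the 6 saline mice, mouse 230 stood highest in epithelium for Birc3 (14.03 CPM), Icam1 (381 CPM), Tnf (0.553 CPM) and Tnip3 (1.79 CPM), and in whole lung for Icam1 (419 CPM). These groups pool batches, and among the 3 saline mice of S151 mouse 230 was highest for 9 of 10 members in epithelium and 6 of 10 in whole lung. Mouse 230 was the only female of these 3, so its place cannot be told apart from sex, and leaving it out leaves only males there. Without mouse 230 Icam1 in whole lung was called higher in bleomycin control than in saline mice (0.50, adjusted p = 0.0393), by edgeR. Tnf in epithelium was then also called (adjusted p = 0.0476), but the other 5 saline libraries held 1 count of Tnf in all, so its fitted fold change is not a measure of size.

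The response of Tnip3 to bleomycin differed between epithelium and whole lung by 1.99 on the log2 scale, by the interaction term of edgeR.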

How the results depend on the processing

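Counts of members called moved as follows, with changes of at most 1.5-fold given only in part. They are out of 10, or out of fewer in refits where Tnf or Tnfsf9 did not pass the filter on low counts. For bleomycin control over saline in epithelium (2), DESeq2 and library totals gave 4 and batch S135 alone 1. In whole lung (3), S135 alone gave 0, and the highest count of any setting was 4. For the difference of that response (1), the fit with no replicate block and the fit without S061 gave 0. Without the block Tnfsf9 was also called between compartments of saline mice (1.03, adjusted p = 0.0432), and the pairing changed no other call. For KIRA8 in epithelium (2), only the groups compared, S061 alone and no S061 gave 1, S135 alone 0 and DESeq2 3. For the difference of the KIRA8 response (0), DESeq2 gave 1. Between compartments, S135 alone gave 2 in bleomycin control mice (7), and in saline mice (4) library totals gave 7 and DESeq2 6. With 1 mouse left out at a time the counts ranged over 2 to 4, 3 to 4, 0 to 1, 1 to 2, 0, 7 to 8 and 3 to 4 in that order, with 4 in the first without saline mouse 153, and stayed at 0 for KIRA8 in whole lung and 3G9 in both compartments. Signs turned in 5 of 2040 refits of single members where either value was called, all between compartments: with library totals in saline mice Icam1 (-0.24), Nfkb2 (-0.72), Nfkbia (-0.55) and Relb (-0.76), and within S135 Tnfrsf12a (-0.86). The cause was not tested. Over all genes DESeq2 called 243 for KIRA8 in epithelium (edgeR 45), 701 in whole lung (102), 36 and 230 for 3G9 (0 and 38, with 66.1% higher in whole lung against 84.2%), 2975 for bleomycin in whole lung (1962), and 185 and 200 for the differences (29 and 1). With library totals edgeR called 3622 genes for bleomycin and 161 for KIRA8 in epithelium, 20 for KIRA8 in whole lung and 130 for the difference of the bleomycin response. S135, with 2 bleomycin control mice and the lowest depth, and members near 0 counts (Tnf and Tnfsf9) limit these results.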
